A study of Homo sapiens with 16 samples.

Results

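The enzymes described here are the steroid 5-alpha-reductases SRD5A1, SRD5A2 and SRD5A3 and the 17-beta-dehydrogenases HSD17B4, HSD17B6, HSD17B8, HSD17B10, HSD17B11, HSD17B12 and HSD17B14, with every array probe annotated to them. Of these 10 genes, 9 had a probe, with 13 probes in each set of arrays, out of 20669 annotated genes in all; SRD5A3 was not analysed here. Expression was measured on 16 Illumina HumanHT-12 arrays of LNCaP-1F5 cells, a derivative of the human prostate cancer line LNCaP into which a rat glucocorticoid receptor was stably introduced. Every culture, the vehicle controls included, had spent 3 days in charcoal-stripped medium, which holds little steroid. One set of 8 arrays (array version 3) belongs to the androgen dihydrotestosterone (DHT, 100 nM, 24 hours) and the other 8 (version 4) to dexamethasone (DEX, 100 nM, 24 hours), a synthetic glucocorticoid. By their titles, each set holds 4 groups of 2 arrays: vehicle and hormone in parental cells, and vehicle and hormone in cells given an siRNA pool against FOXA1 (siFoxA1), a pioneer factor that opens chromatin for steroid receptors. The study describes the replicates as biological duplicates. The 2 sets were normalised separately, each on 1 chip, so no level is compared between them.

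Levels of a pair of control genes went against part of these titles, so every group below goes by its title alone, and arrays were left in the groups of their titles. The targeted gene FOXA1 was at log2 levels of 13.53, 13.60, 13.56 and 13.67 on the 4 arrays titled Vehicle in the DHT set and at 12.23, 12.24, 12.27 and 12.36 on the 4 titled DHT, with no difference by the siFoxA1 title (0.06, adjusted p = 1, limma). FKBP5, which androgen and glucocorticoid receptors induce, lay between 7.75 and 8.21 on the 4 replicate 1 arrays of that set and between 12.13 and 13.15 on the 4 replicate 2 arrays. In the DEX set FKBP5 followed the siFoxA1 title, at 9.20 to 9.39 on parental arrays and 13.80 to 13.89 on siFoxA1 arrays. FOXA1 in that set was lower on siFoxA1 arrays than on parental arrays of the same replicate number (12.65 and 12.66 against 13.36 and 13.36 in replicate 1, 10.84 and 10.84 against 12.09 and 12.17 in replicate 2), and lower in replicate 2 than in replicate 1 (-1.53, adjusted p = 1.09e-06); by siFoxA1 title over all 8 arrays its adjusted p was 0.299, and 2.20e-05 with the replicate number as a block in the fit. The array with the most similar profile shared the replicate number in all cases (8 of 8 arrays in either set); it had the same hormone title but the other siFoxA1 title in the DHT set (8 of 8), and the same siFoxA1 title but the other hormone title in the DEX set (8 of 8). Differences are therefore given by hormone title, by siFoxA1 title and by replicate number, and what any of them stood for in the cells was not tested.

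Mean signal per array ranged from 390.5 to 528.2 for DHT arrays and from 597.4 to 683.1 for DEX arrays, and 23.0% to 26.4% and 33.7% to 36.3% of probes were detected at a detection p under 0.01. As a check of the line, 7 of the 8 luminal epithelial markers, among them KRT8, EPCAM, CDH1 and HOXB13, were detected on all 8 arrays of either set, and KRT19 on 3 DHT-set and 7 DEX-set arrays. Of the 3 basal epithelial keratins measured, KRT5 and KRT14 were detected on 0 arrays and KRT15 on 2 DEX-set arrays (4.59 to 5.75 over the 8). Of the 6 fibroblast markers, 2 were detected on any DHT-set array (PDGFRA on 6, COL1A1 on 1) and 3 on any DEX-set array (COL1A1 on 8, COL3A1 and DCN on 1 each), with COL1A2 and LUM on 0. Of the 7 blood and endothelial markers, 2 were detected on any DHT-set array (VWF on 2, up to 7.16, and PECAM1 on 1) and 1 on any DEX-set array (HBB on 2, up to 8.84), with PTPRC, CD3E, CD14 and CDH5 on 0. Their part in the results below was not tested.

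Steroid 5-alpha-reductases saturate the A ring of their substrate. SRD5A1 and SRD5A2 convert testosterone to DHT, the most potent natural androgen, and SRD5A2 is the classical enzyme of normal prostate, whereas prostate cancer cells tend to express SRD5A1. SRD5A3 reduces polyprenol to dolichol, the lipid carrier of N-glycan synthesis. The 17-beta-dehydrogenases are named for interconverting hydroxyl and keto groups at carbon 17 of steroids, but several of them work mainly on fatty acids: HSD17B4 is the peroxisomal D-bifunctional protein of beta-oxidation, HSD17B12 the ketoacyl-CoA reductase of fatty acid elongation, and HSD17B10 a mitochondrial enzyme of isoleucine breakdown that is also a subunit of mitochondrial RNase P.

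The promoters of the 4 members that changed by the siFoxA1 title in the DEX set are shown, since SRD5A1, HSD17B4 and HSD17B11 rose together and HSD17B8 fell. Each run is the 250 bases before the RefSeq start on GRCh38.p14, read on the strand of the gene, and capitals mark a GC box (GGGCGG on either strand), the site of Sp factors. SRD5A1 lies at chr5:6633190-6633439 on the plus strand, HSD17B4 at chr5:119452247-119452496 on the plus strand, HSD17B11 at chr4:87391189-87391438 on the minus strand and HSD17B8 at chr6:33204405-33204654 on the plus strand.
SRD5A1: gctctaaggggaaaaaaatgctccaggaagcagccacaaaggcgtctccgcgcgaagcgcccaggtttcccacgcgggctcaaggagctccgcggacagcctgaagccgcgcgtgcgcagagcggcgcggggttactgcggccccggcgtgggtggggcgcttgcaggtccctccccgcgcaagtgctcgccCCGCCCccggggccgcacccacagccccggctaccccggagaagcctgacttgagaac
HSD17B4: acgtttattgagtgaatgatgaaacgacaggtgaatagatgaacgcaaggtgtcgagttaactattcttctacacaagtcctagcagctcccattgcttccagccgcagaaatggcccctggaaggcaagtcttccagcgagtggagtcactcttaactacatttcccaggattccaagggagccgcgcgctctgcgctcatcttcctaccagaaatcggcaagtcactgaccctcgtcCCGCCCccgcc
HSD17B11: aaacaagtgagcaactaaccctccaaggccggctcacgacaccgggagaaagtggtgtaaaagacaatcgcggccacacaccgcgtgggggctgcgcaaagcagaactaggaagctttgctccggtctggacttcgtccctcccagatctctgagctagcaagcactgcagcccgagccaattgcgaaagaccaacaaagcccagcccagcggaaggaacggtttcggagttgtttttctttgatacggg
HSD17B8: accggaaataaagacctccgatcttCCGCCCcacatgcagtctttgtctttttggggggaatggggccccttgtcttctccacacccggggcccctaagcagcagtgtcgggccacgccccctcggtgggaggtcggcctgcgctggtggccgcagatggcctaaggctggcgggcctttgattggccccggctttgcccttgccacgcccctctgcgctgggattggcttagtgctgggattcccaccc

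The promoters of SRD5A1, HSD17B4 and HSD17B8 each held 1 GC box and that of HSD17B11 held 0; 42.6% of the 35116 RefSeq promoters of this length held at least 1. Neither the steroid receptor half-site AGAACA, which 12.4% of all promoters held, nor the full steroid response element, a palindrome of that half-site with 3 bases between its arms (1 of all promoters), nor the forkhead letters TGTTTAC (2.98%) occurred on either strand in these 4 windows; the half-site is part of the full element. Bases G and C made up 70.8% of the SRD5A1 window, 64.8% of HSD17B8, 56.0% of HSD17B11 and 52.8% of HSD17B4, around the median of 58.0% over all promoters. A match or its absence describes these letters only, and enhancers farther away were not analysed here. Of the 10 genes, 7 were in the promoter table.

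SRD5A1 showed the largest difference of any member in the comparisons made here: it was 10.9-fold higher on the siFoxA1-titled arrays of the DEX set than on the parental-titled ones. HSD17B4 was 2.14-fold higher there, and HSD17B11 2.80-fold and 2.47-fold higher by its 2 detected probes. HSD17B8, an enzyme known for oxidising estradiol, was 1.51-fold lower. The arrays read bulk RNA, so fewer expressing cells and less RNA per cell cannot be told apart. In the fit without the replicate number, these 5 probes of 4 genes were called out of 11 member probes tested, while 11.0% of all 18391 probes tested were called. With the number as a block in the fit, 32.7% of all probes were called, and the member count of that fit is given below. A call is an adjusted p under 0.05 in limma with p-values adjusted over all detected probes of the set.

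The SRD5A1 probe read log2 levels of 8.16 and 8.06 on the vehicle parental arrays (replicate 1, then replicate 2) and 8.50 and 8.02 on the DEX parental arrays. On the vehicle siFoxA1 arrays it read 11.81 and 11.42, and on the DEX siFoxA1 arrays 11.75 and 11.56. In scanner units these are signals of 322.3 to 461.7 against 2902.9 to 3810.4. The 4 siFoxA1-titled arrays therefore lay above all 4 parental ones, with a gap several times wider than the spread within either title (means 8.18 ± 0.22 and 11.64 ± 0.18, SD, n = 4 each). The difference of 3.45 (95% interval 3.09 to 3.82, adjusted p = 2.07e-05, limma) ranked 71 by size among the 18391 probes. It was 3.45 among the replicate 1 arrays and 3.45 among the replicate 2 arrays. SRD5A1 has a pseudogene copy, and whether the probe also reads it was not tested.

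SRD5A2 was not detected on any of the 16 arrays: its log2 level was 4.58 to 5.31 on DEX-set arrays and 4.64 to 5.03 on DHT-set arrays, and its lowest detection p was 0.039 and 0.121. That is the range of undetected probes, so no direction is given for it. Of the 2 reductases with a probe, SRD5A1 alone was above background.

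HSD17B4, the peroxisomal enzyme that hydrates and dehydrogenates very long chain and branched acyl-CoAs and can also oxidise estradiol, read 11.72, 11.57, 11.77 and 11.67 on the parental arrays (vehicle replicates 1 and 2, then DEX replicates 1 and 2) and 12.97, 12.71, 12.84 and 12.60 on the siFoxA1 arrays in the same order. The titles did not overlap, and the spread within a title was small beside the gap (means 11.68 ± 0.09 and 12.78 ± 0.16, SD, n = 4 each). The difference by siFoxA1 title was 1.10 (SE 0.11, adjusted p = 0.000934).

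HSD17B11, a lipid droplet enzyme that oxidises the androgen metabolite androstanediol, has 3 probes. By ILMN_1735367 it read 7.74, 8.12, 7.77 and 8.34 on the parental arrays and 9.59, 9.43, 9.29 and 9.60 on the siFoxA1 arrays. By ILMN_1675117 it read 6.27, 6.09, 6.03 and 6.58 on the parental arrays and 7.14, 7.53, 7.62 and 7.90 on the siFoxA1 arrays in the same order. Scanner signals of ILMN_1675117 were 162.6 to 184.1 against 243.6 to 331.4, close to the background on the parental side, so its fold is uncertain. Both probes separated the titles without overlap, with differences of 1.49 (SE 0.18, adjusted p = 0.00263) and 1.30 (SE 0.21, adjusted p = 0.0078). The remaining probe, ILMN_1796708, was not detected on any array of either set.

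HSD17B8, which also forms a complex with CBR4 that acts as the ketoacyl reductase of mitochondrial fatty acid synthesis, went the other way. It read 10.91, 10.93, 10.96 and 10.66 on the parental arrays and 10.30, 10.29, 10.37 and 10.11 on the siFoxA1 arrays. All 4 siFoxA1-titled arrays lay below the 4 parental ones. The difference of -0.60 (SE 0.12, adjusted p = 0.02) was less firm than the others: with 1 array left out in turn it was called in 2 of 8 fits, with adjusted p-values of up to 0.0793, and the estimate stayed between -0.67 and -0.52.

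A pair of 17-beta-dehydrogenases was called by the siFoxA1 title over the whole DEX set only when the replicate number was a term in the fit. HSD17B14, a cytosolic enzyme that oxidises estradiol and other hydroxysteroids, read 8.26, 8.18, 8.62 and 8.21 on the parental arrays and 7.65, 7.66, 8.27 and 7.69 on the siFoxA1 arrays. These groups overlapped, through the DEX siFoxA1 replicate 1 array, and the difference was -0.50 (adjusted p = 0.123, and 0.017 with the replicate block). HSD17B12, by ILMN_2094106, read 11.29, 11.20, 11.30 and 11.28 against 10.93, 10.92, 11.08 and 10.97, with no overlap, a difference of -0.29 and an adjusted p of 0.0879 (0.0169 with the block). With that block 7 of the 11 member probes were called, beside 32.7% of all probes tested, 6009 in place of 2016. The balance of direction over all probes differed too, with 2580 higher and 3429 lower under the block against 1195 and 821 without it.

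The other tested probes did not pass in either fit of the siFoxA1 title. HSD17B10 read 9.26 to 10.02 on parental and 9.67 to 9.86 on siFoxA1 arrays by ILMN_1691926 (difference 0.11, 95% interval -0.29 to 0.52), and 9.87 to 10.39 against 10.23 to 10.39 by ILMN_2355971 (0.17, interval -0.17 to 0.52). The other HSD17B12 probe, ILMN_1702168, gave -0.25 (interval -0.58 to 0.09), and HSD17B6 0.24 (interval -1.08 to 1.55). A 2-fold change in either direction lies outside the HSD17B10 intervals, whereas the HSD17B6 interval is too wide to leave it out.

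Taken within each replicate number, the siFoxA1-title differences of the 4 called genes kept their direction and were called in both numbers. These fits take their spread between arrays of unlike hormone title. That split was chosen because such arrays had the most similar profiles, so its p-values are descriptions. Among replicate 1 arrays 6 of 11 member probes were called, beside 28.2% of all probes, and among replicate 2 arrays 9 of 11, beside 31.4%. ILMN_2094106 of HSD17B12 was among them in both numbers, but its calls were lost under some settings. With no filter on dim probes it was at -0.29 and -0.30 (adjusted p = 0.0939 and 0.0719). With no variance trend the adjusted p was 0.127 and 0.109. Leaving out any replicate 1 array lost its replicate 1 call, with differences from -0.36 to -0.21. Its replicate 2 call was lost without DEX parental, vehicle siFoxA1 or DEX siFoxA1 replicate 2 (-0.26, -0.27 and -0.32). That call was also lost with median scaling (-0.27, adjusted p = 0.053). HSD17B4 differed by 1.16 and 1.03, HSD17B11 by 1.69 and 1.28 (ILMN_1735367) and by 1.22 and 1.38 (ILMN_1675117), and HSD17B8 by -0.60 and -0.60. The calls made only among replicate 2 arrays were HSD17B10 by both probes (0.38, adjusted p = 0.0458, and 0.40, adjusted p = 0.00906) and HSD17B12 by ILMN_1702168 (-0.51, adjusted p = 0.00765). These rested on single arrays: without DEX parental replicate 2, ILMN_1691926 of HSD17B10 fell to 0.22 (adjusted p = 0.326) and ILMN_1702168 of HSD17B12 was -0.33 (adjusted p = 0.116), and without vehicle siFoxA1 replicate 2 the adjusted p was 0.114 for ILMN_1702168 and 0.0875 for ILMN_2355971 of HSD17B10. ILMN_1691926 was called in 3 of the 8 fits that left out 1 array, and was not called with the hormone title as a term (adjusted p = 0.0529). The difference between the replicate numbers was itself called for 0 of 11 member probes in limma, where 3.87% of all probes were called; 3 member probes, the 2 of HSD17B10 at 0.53 and 0.46 and ILMN_1702168 of HSD17B12 at -0.53, had 95% intervals of that difference that leave out 0.

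**Figure D1:**
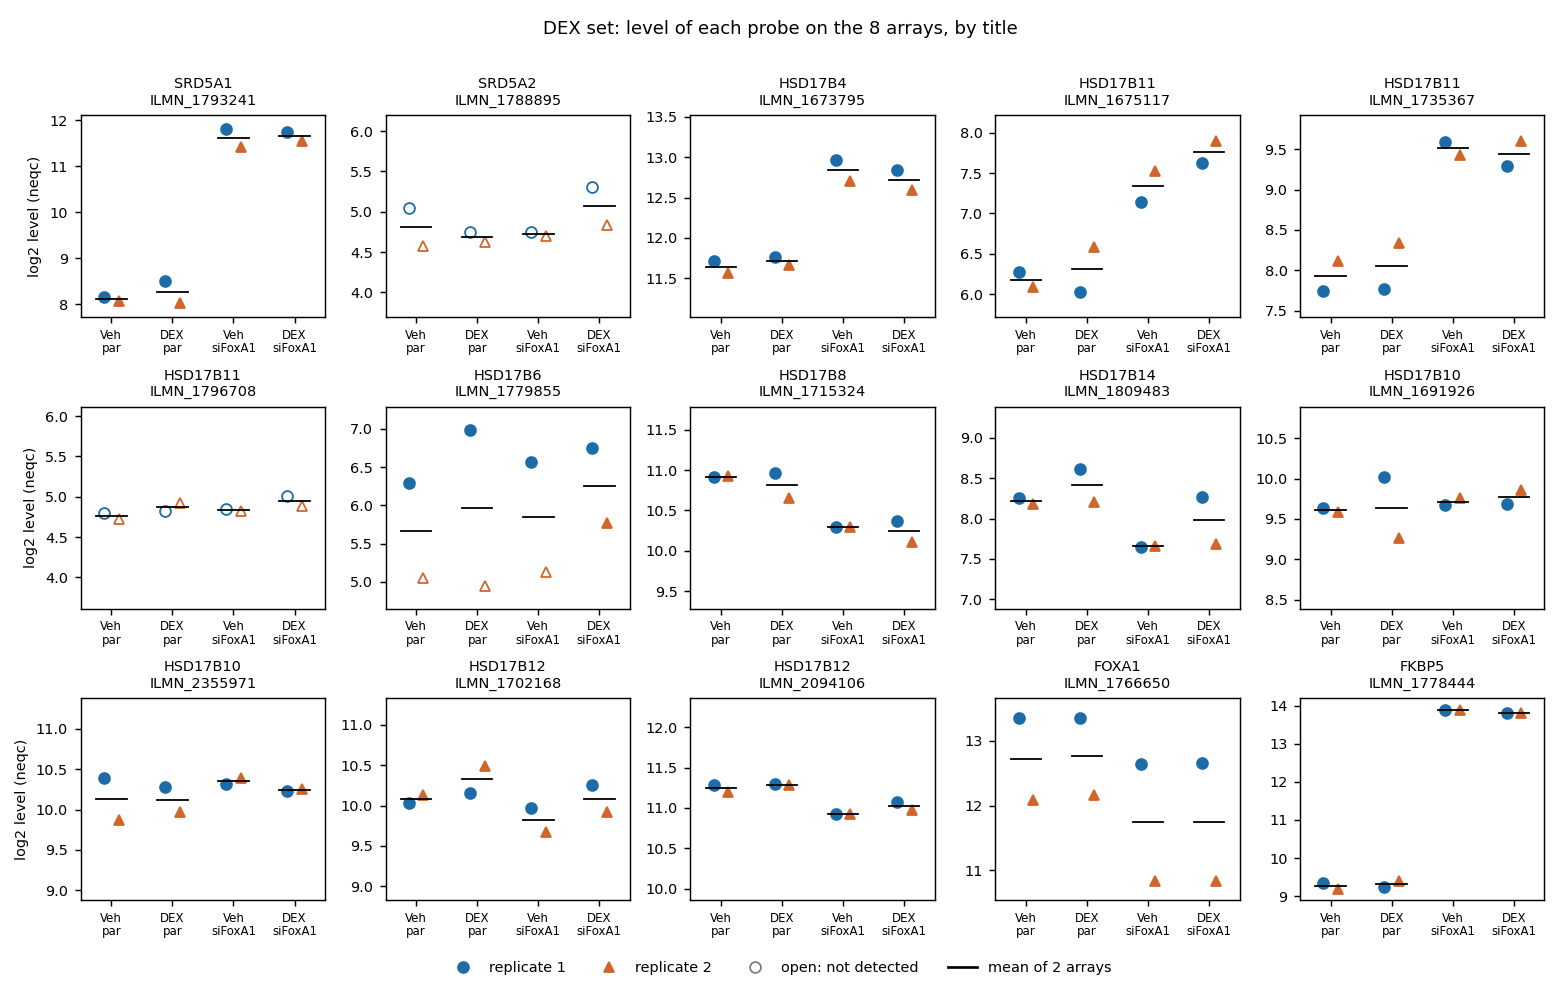
Log2 level (neqc) of each member probe and of FOXA1 and FKBP5 on the 8 arrays of the DEX set, by title; circles are replicate 1, triangles replicate 2, open symbols are not detected and bars are means of 2 arrays. SRD5A1 sits at 8.02 to 8.50 on parental-titled arrays and at 11.42 to 11.81 on siFoxA1-titled arrays, with the DEX and vehicle titles side by side.

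By the hormone title no member was called in the DEX set. The 11 tested probes gave differences between -0.09 (HSD17B8) and 0.35 (HSD17B6), 0 of 18391 probes were called by limma (0.00%), and 122 had an unadjusted p under 0.05 (367 with the replicate block). For SRD5A1 the DEX-title difference was 0.10 with a 95% interval of -0.27 to 0.46, and for HSD17B4 -0.02 with an interval of -0.27 to 0.23. The interaction of hormone and siFoxA1 titles was called for 0 probes too, with 176 at an unadjusted p under 0.05.

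HSD17B6, which can oxidise androstanediol back to DHT, was the single member called by replicate number in the DEX set, out of 11 probes tested. It read 6.29, 6.99, 6.57 and 6.75 on the replicate 1 arrays, on which it was detected 4 times of 4. On the replicate 2 arrays it read 5.05, 4.95, 5.13 and 5.77, and only the last, DEX siFoxA1, counted as detected, so that it passed the filter on dim probes through replicate 1. The numbers did not overlap, and the log2 difference was -1.43 (SE 0.24, adjusted p = 0.000895), where 21.5% of all probes were called. Since the filter was passed through the brighter number, this test is given as a description and supports no direction. The low side is close to the background, so the size is uncertain: it was -0.53 with no background correction and -1.54 with the authors' deposited values. SRD5A1 was not called by replicate number (-0.29, adjusted p = 0.0637), although it was with median scaling in place of quantile normalisation (-0.38, adjusted p = 0.0187), which moved the median of all probes by -0.10.

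In the DHT set 10 member probes of 8 genes were tested; ILMN_1675117 of HSD17B11 was not detected there (4.78 to 5.89). By replicate number, HSD17B11 was 2.86-fold and HSD17B4 1.50-fold higher on replicate 2 arrays and HSD17B8 was 1.40-fold lower; these were 3 of 10 member probes, where 12.9% of all 13094 probes were called. SRD5A1 was not called by any of the titles or by replicate number.

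SRD5A1 read 8.20 and 8.21 on the vehicle parental arrays of the DHT set, 7.93 and 7.88 on DHT parental, 7.96 and 8.35 on vehicle siFoxA1 and 7.97 and 8.56 on DHT siFoxA1. All 8 arrays lay between 7.88 and 8.56, and the groups overlapped by hormone title, by siFoxA1 title and by replicate number. Its difference was -0.10 by DHT title (95% interval -0.51 to 0.31), 0.15 by siFoxA1 title (interval -0.26 to 0.57) and 0.24 by replicate number (interval -0.10 to 0.57, adjusted p = 0.35).

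HSD17B11 carried the widest range of any member probe detected on all 8 arrays of the DHT set, 2.56 on the log2 scale. By ILMN_1735367 it read 7.62 and 7.30 on the replicate 1 arrays titled Vehicle (parental, then siFoxA1), 8.60 and 8.74 on the replicate 1 arrays titled DHT, 9.66 and 9.52 on the replicate 2 arrays titled Vehicle and 9.86 and 9.29 on the replicate 2 arrays titled DHT. The vehicle-titled replicate 1 arrays were lowest, the DHT-titled ones of that number came next, and the 4 replicate 2 arrays were highest and overlapped by title. The difference by replicate number was 1.52 (SE 0.23, adjusted p = 0.00166). Among replicate 1 arrays the DHT titles were higher by 1.20 (SE 0.20, adjusted p = 7.71e-05) and among replicate 2 arrays the difference was -0.01 (95% interval -0.42 to 0.39). The spread in these fits within a number is that between arrays of unlike siFoxA1 title. That split was chosen because such arrays had the most similar profiles, so its p-values are descriptions. The difference between the DHT-title differences of the 2 replicate numbers was -1.22 (SE 0.28, adjusted p = 0.00836), the single called one of 10 member probes, beside 4.73% of all probes. It was not called without the vehicle parental replicate 2 array (-1.15, adjusted p = 0.0611) or without the DHT siFoxA1 replicate 2 array (-0.93, adjusted p = 0.0847).

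HSD17B4 read 10.87, 11.29, 11.34 and 11.26 on the replicate 1 arrays and 11.92, 11.71, 11.99 and 11.49 on the replicate 2 arrays (vehicle parental, DHT parental, vehicle siFoxA1, DHT siFoxA1). Replicate 2 was higher on every array, and the lowest array was vehicle parental replicate 1. The difference was 0.59 (SE 0.13, adjusted p = 0.0124); it was 0.44 and not called without either vehicle parental array (adjusted p = 0.0513 without replicate 1 and 0.053 without replicate 2).

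HSD17B8 read 10.51, 10.22, 10.43 and 10.43 on replicate 1 arrays and 10.10, 9.49, 10.26 and 9.81 on replicate 2 arrays in that order. The ranges touched, since vehicle siFoxA1 replicate 2 lay above DHT parental replicate 1. Replicate 2 was lower by a log2 difference of -0.48 (SE 0.12, adjusted p = 0.025), a call made in 2 of the 8 fits that left out 1 array. Among replicate 2 arrays the DHT titles were lower than the vehicle titles, at -0.53 (adjusted p = 0.0142), the single called one of 10 member probes where 21.4% of all probes were called. That call was lost without either the DHT parental or the vehicle siFoxA1 replicate 2 array (adjusted p = 0.193 and 0.135).

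By hormone title over the whole DHT set 0 of 10 member probes were called, where 5.17% of all probes were, and the 95% interval of 1 of them excluded 0. That probe was HSD17B6. It read 6.59 and 6.59 on vehicle parental and 6.67 and 5.91 on vehicle siFoxA1 arrays, and 5.48, 5.90, 5.24 and 4.94 on the DHT-titled arrays. All 4 DHT-titled arrays lay below the 4 vehicle ones, the closest pair being 5.90 and 5.91, and it was detected on 3 of the vehicle arrays and on 0 of the DHT arrays. It passed the filter, detection on at least 2 arrays, only through the group in which it was higher, so its tests by hormone title are given as a description and support no direction. Its difference was -1.05 (adjusted p = 0.0598), called with the replicate block (adjusted p = 0.015), where 18.1% of all probes were. Set against the detection limit the fold was at least 1.18, a bound that rests on the same filter. Among replicate 1 arrays that fold was at least 1.41 (adjusted p = 0.0133). HSD17B6 and HSD17B11 made 2 of 10 calls there, beside 15.3% of all probes, and the place of HSD17B6 in that count rests on the filter. The HSD17B6 call was lost when vehicle parental, vehicle siFoxA1 or DHT siFoxA1 replicate 1 was left out (differences of -1.32, -1.23 and -1.16). The number of detected probes also differed by title, from 11912 to 12881 on vehicle arrays and from 11216 to 11940 on DHT arrays, and its part in this difference was not tested.

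**Figure D2:**
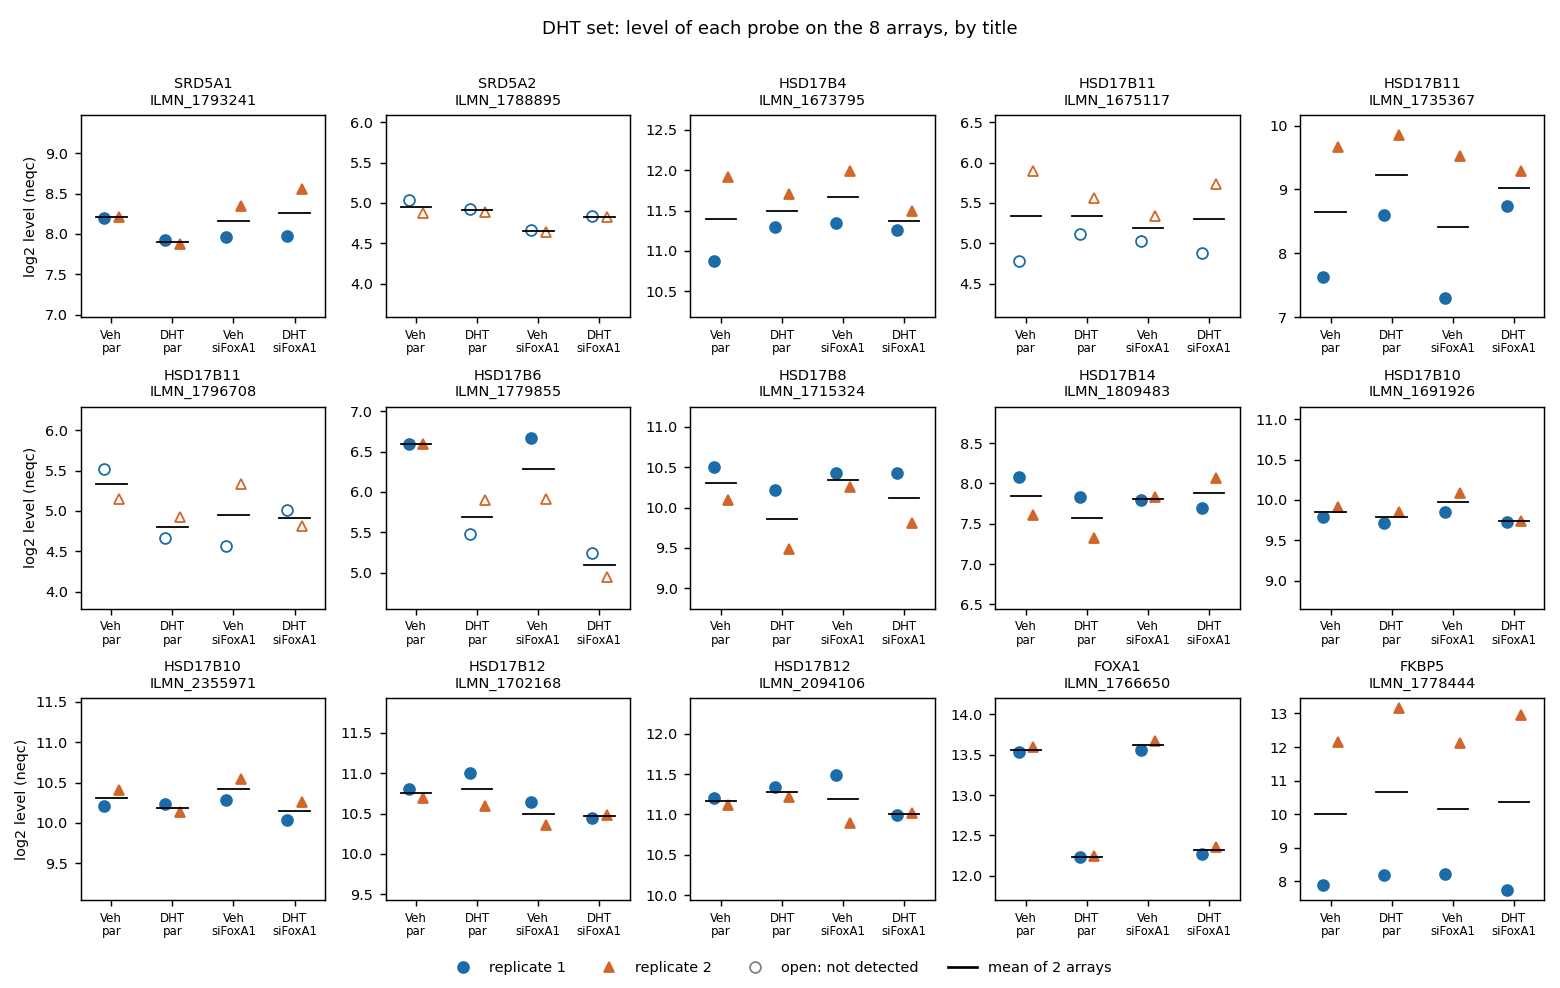
The same probes on the 8 arrays of the DHT set, log2 level (neqc) by title; symbols as for the DEX set, with open symbols for arrays on which a probe was not detected. HSD17B11 (ILMN_1735367) spans 7.30 to 9.86 with replicate 2 above replicate 1, SRD5A1 stays between 7.88 and 8.56, and FOXA1 separates by the DHT title.

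The remaining members showed no call in the DHT set under any label. HSD17B14 read 7.32 to 8.08, HSD17B12 10.89 to 11.49 by ILMN_2094106 and 10.36 to 11.00 by ILMN_1702168, and HSD17B10 9.72 to 10.09 by ILMN_1691926 and 10.04 to 10.55 by ILMN_2355971. None of these ranges was as wide as that of HSD17B8, 9.49 to 10.51. By siFoxA1 title 0 of 13094 probes were called in limma (0.00%), with 355 at an unadjusted p under 0.05, and the 10 member probes gave differences from -0.45 (HSD17B6) to 0.15. The test of hormone title in parental arrays alone called 0 of 10 members and 0.634% of all probes (7.43% with the replicate block), and that in siFoxA1 arrays alone 0 of 10 and 0.810% (7.93% with the block).

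**Figure D3:**
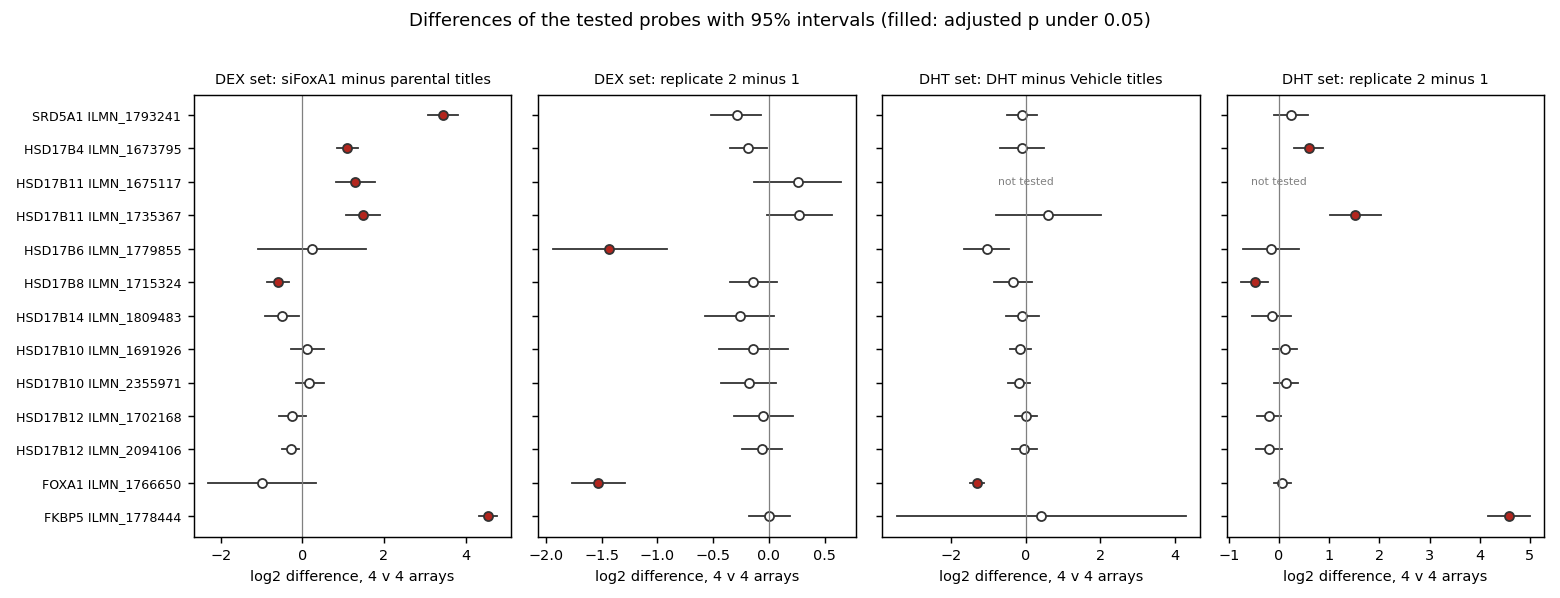
Log2 difference of each tested probe with its 95% interval in 4 comparisons of 4 against 4 arrays; filled points have an adjusted p under 0.05, and each panel has its own horizontal scale. SRD5A1 stands at 3.45 in the siFoxA1 panel of the DEX set and near 0 in the others, and HSD17B11 at 1.52 by replicate number in the DHT set. HSD17B6 stands at -1.43 by replicate number in the DEX set, where it passed the filter through the brighter number.

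The profile of SRD5A1 over the 8 arrays of the DEX set was most like those of ANO6, a membrane scramblase (Pearson r = 0.999, levels 7.44 to 10.73), KCNMA1, a calcium-activated potassium channel (r = 0.998, 5.07 to 10.48), and CHST3, a chondroitin sulfotransferase (r = 0.998, 7.22 to 11.63). In the DHT set HSD17B11 was most like HES1, a transcriptional repressor of the Notch pathway (r = 0.986, 4.92 to 8.64), DLG2, a scaffold protein (r = 0.979), and PPP1CB, a phosphatase catalytic subunit (r = 0.974). These are descriptions over 8 arrays that share a chip and the replicate difference, picked as the highest of all genes. The SRD5A1 profile is mostly its siFoxA1-title difference, so a gene with a wide difference by that title would show a high r.

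Genes of the pathways around the members are described by counts, with 1 probe per gene. By siFoxA1 title in the DEX set 7.34% of 10999 genes were higher and 4.33% lower, with a median difference of -0.06; with the replicate block 15.8% were higher and 19.3% lower. A gene detected on 1 side only passed the filter through that side, which tilts its test towards a difference. The counts below name such genes where they were called in the fit without the block. No gene was taken out of the counts with the block. Very long chain fatty acid elongation, in which HSD17B12 acts, had 7 of 15 tested genes higher and 0 lower (median 0.38): the desaturase FADS1 at 2.67, the elongase ELOVL5 at 2.14 and the acyl-CoA synthetase ACSL1 at 1.35 led, while HSD17B12 itself was -0.29. ELOVL2 and ELOVL7 were detected on siFoxA1 arrays only, which leaves 5 of the 7. With the block, where both stay among the genes tested, 8 were higher and 0 lower. Peroxisomal beta-oxidation, the pathway of HSD17B4, had 2 of 17 higher and 1 lower (median -0.26), namely the transporter ABCD3 at 2.12, the thiolase ACAA1 at 1.42 and the carnitine acyltransferase CRAT at -0.71; with the replicate block 3 were higher and 7 lower, beside 15.8% and 19.3% of all genes. ABCD3 and ACAA1 thus rose by the same label as HSD17B4, while 14 of the 17 were not called in the fit without the block.

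Androgen synthesis and inactivation had 4 of 14 tested genes higher and 0 lower by siFoxA1 title in the DEX set (median 0.35). CYP11A1, the side-chain cleavage enzyme that starts steroid synthesis, was at least 2.33-fold higher, and HSD11B1, which regenerates active glucocorticoid, at least 2.16-fold; both were detected on 4 siFoxA1 arrays and on 0 parental ones, so their place in the count rests on the filter, and H6PD and POR are the 2 calls that do not. H6PD, which supplies HSD11B1 with NADPH, rose by 1.11 and POR, the electron donor of microsomal P450 enzymes, by 0.78. With the block, where CYP11A1 and HSD11B1 stay among the genes tested, 5 genes of this list were higher and 2 lower. Of the other 17-beta-dehydrogenases 0 of 5 tested genes were called (median 0.15). Dolichol and early N-glycan synthesis, the pathway of SRD5A3, had 3 of 20 higher and 0 lower (median 0.33). The dolichol kinase DOLK led at 0.99, with ALG11 at 0.76 and ALG14 at 0.60. With the replicate block 9 were higher and 0 lower, beside 15.8% and 19.3% of all genes. Mitochondrial isoleucine breakdown and tRNA processing had 0 of 12 called (median -0.13) and mitochondrial fatty acid synthesis 0 of 6 (median -0.32). Among lipid droplet proteins 1 of 9 was called, CIDEC, a droplet fusion protein, at least 2.58-fold higher (median 0.03) and detected on siFoxA1 arrays only. With the block the calls higher and lower were 1 and 0 of the other 17-beta-dehydrogenases, 1 and 3 of isoleucine breakdown, 0 and 1 of mitochondrial fatty acid synthesis and 2 and 0 of lipid droplet proteins.

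By replicate number in the DHT set, where 6.45% of 9028 genes were higher on replicate 2 arrays and 7.01% lower (median -0.02), 8 of the 14 elongation genes were called, with 7 higher and 1 lower (median 0.37): ELOVL2 was at least 4.13-fold higher, ELOVL5 rose by 2.08 and FADS2 by 1.04, and ELOVL6, which elongates palmitate, fell by 1.22. ELOVL2 was detected on replicate 2 arrays only, which leaves 6 of the 7. Peroxisomal beta-oxidation had 2 of 17 higher and 3 lower (median -0.06), with the isomerase ECI2 at 1.42, ACAA1 at 0.70 and the bifunctional enzyme EHHADH at -0.71. Androgen synthesis and inactivation had 2 of 13 higher and 2 lower (median 0.09): HSD11B2, which inactivates cortisol, fell by 1.48, FDX1, the electron carrier of mitochondrial P450 enzymes, fell by 0.90, CYB5A rose by 0.37 and CYP11A1, detected on 2 replicate 2 arrays only, was at least 1.44-fold higher. The lipase PNPLA2 rose by 0.47, the 1 call among 6 lipid droplet genes (median 0.02). No gene was called among 18 of dolichol synthesis (median 0.03), 12 of isoleucine breakdown (median -0.04), 6 of mitochondrial fatty acid synthesis (median -0.28) or 4 other 17-beta-dehydrogenases (median 0.03).

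**Figure D4:**
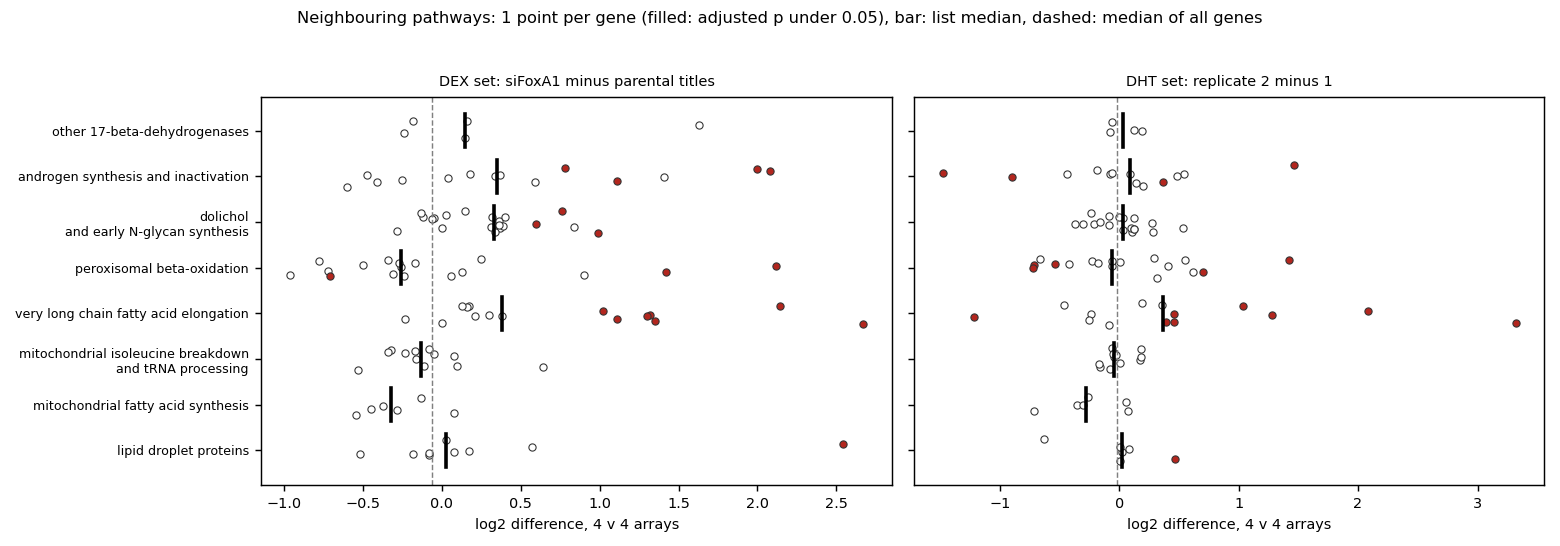
Log2 differences of the genes tested in 8 pathway lists, 1 point per gene, by siFoxA1 title in the DEX set (left) and by replicate number among DHT-set arrays (right); filled points have an adjusted p under 0.05, bars are list medians and the dashed line is the median of all genes. Elongation genes reach 2.67 on the left and 3.32 on the right, the latter being ELOVL2, whose low group was not detected.

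By hormone title in the DHT set, where 2.46% of genes were higher and 3.25% lower (with median scaling, 191 of 1116 called probes were higher, against 298 of 677), AKR1C3, which reduces androstenedione to testosterone, was at least 1.82-fold higher on DHT-titled arrays and the sulfate donor synthase PAPSS1 fell by 0.78, out of 13 genes of androgen synthesis and inactivation. AKR1C3 was detected on DHT-titled arrays only, so its call rests on the filter, and reading across its close paralogs was not tested. AMACR, a racemase that feeds branched acids into the HSD17B4 pathway, fell by 1.38 and was the single call among 17 peroxisomal genes without the replicate block. ELOVL4 rose by 1.36, the single call there out of 14 elongation genes. In isoleucine breakdown, where HSD17B10 acts, BCAT2 fell by 1.07 and BCKDHB rose by 0.58, out of 12. With the block, where 8.85% of genes were higher and 10.7% lower, 6 elongation genes were higher and 0 lower, among them FADS1 at 1.27 and FADS2 at 1.03. Peroxisomal beta-oxidation then had 3 higher and 3 lower, with ABCD3 at 1.02 and ECI2 at -0.82. Androgen synthesis and inactivation had 3 and 3, isoleucine breakdown 2 and 2 and dolichol synthesis 1 and 2. Within replicate 2 alone elongation had 8 higher and 1 lower, beside 10.1% and 12.5% of genes. Genes detected on 1 side only were not taken out of the counts with the block or within replicate 2.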

How the data were processed

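Total RNA was labelled as biotinylated cRNA and hybridised to 1-colour Illumina bead arrays. The deposited scanner files hold mean bead intensity per probe, not background-corrected and not normalised, exported with BeadStudio per the submitters' processing notes, and a detection p-value per probe, per the file headers. The authors' deposited intensity tables, background-subtracted and quantile normalised as their values show, were an alternative. Probe identifiers were joined to scanner rows by their ranks over the 8 arrays (48794 and 47231 rows joined 1 to 1). A run on simulated data recovered 20000 of 20000 rows, but it kept the ranks by construction and so does not test the join. HSD17B8 led to different scanner addresses in the sets. A detection p of 1 written with a shifted separator was read as 1 (353 and 273 cells). Gene names came from the platform annotation, with symbols already current in the RefSeq table.

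Signals were background-corrected with limma's neqc (limma 3.58.1, R 4.3.3, offset 16), put on the log2 scale and quantile normalised over the 8 arrays of a set. Probes detected (p under 0.01) on at least 2 arrays were tested: 13094 and 18391. Models of 4 group means were fitted with lmFit and eBayes with a variance trend, two-sided, with Benjamini-Hochberg adjustment over all tested probes. A fit of 4 group means plus replicate number tested the number and served as the replicate block. Comparisons within a replicate number used 4 cells of the title that the profiles follow by number, so that their spread is between arrays of the other title. These cells were chosen from the similarity of the same profiles, so all p-values within a number, and of the difference between numbers, are descriptions. Same-numbered arrays deviated together from their group means (r of 0.41 to 0.71 in 6 pairs and 0.49 to 0.68 in 6), so the number, given in the titles, pairs the arrays. An undetected group was set at the lowest signal of its detected probes, which gives the "at least" folds. Fits were also run on simulated data with independent spread per array. Those data hold no shared replicate difference, unlike these arrays, so that run does not test the fits without the block. All members, FOXA1 and FKBP5 were named, with up to 3 genes per list and the 3 most similar genes; genes named beyond these were called. Members, lists and splits were chosen with earlier results of these data known. Probe lengths, probe coordinates, protein sequences and SRD5A3 were not used here. With 2 arrays a group, the number of arrays limits the precision.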

Additional observations from a re-analysis of the deposited data

Results flagged for a closer look

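HSD17B11 in the DHT set was the single result marked for another look: its difference between arrays titled DHT and Vehicle was not the same in the 2 replicate numbers. The DHT titles were higher by 1.20 among replicate 1 arrays (8.67 ± 0.10 against 7.46 ± 0.23, SD, n = 2 each) and differed by -0.01 among replicate 2 arrays (9.58 ± 0.41 against 9.59 ± 0.10). The test of this difference itself gave -1.22 (95% interval -1.79 to -0.64, adjusted p = 0.00836 in limma), with a range of -1.51 to -0.93 when 1 array was left out. Each of these groups holds 1 array of either siFoxA1 title, and the split was chosen because such arrays had the most similar profiles. The p-value is therefore a description. The other 2 probes of HSD17B11 were not above background in this set.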

How the results depend on the processing

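No called member probe changed direction under any setting. Results of single member and control probes that were called under at least 1 setting were counted once for each alternative setting. Of these, 835 were on the same side of the threshold, 63 were no longer called and 20 became called. The siFoxA1-title calls of SRD5A1 (3.03 to 3.49), HSD17B4 (1.07 to 1.10) and HSD17B11 (1.16 to 1.51 by ILMN_1735367) in the DEX set held under all 9 alternatives and with each of 8 arrays left out. Member probes called by hormone title in the DHT set went from 0 to 1, HSD17B6, with median scaling, with no filter on dim probes, with no variance trend and with the replicate block; median scaling moved the median of all probes by -0.19 there. The hormone title by replicate interaction went from 1 to 0 with no filter and with no variance trend, DHT titles within replicate 1 from 2 to 1 with probes detected on all 8 arrays, and DHT titles within replicate 2 from 1 to 3 with median scaling (adding HSD17B4 and HSD17B10) and to 0 with no filter and with no variance trend. Replicate number in the DHT set went from 3 to 1 with no variance trend, which left HSD17B11, and in the DEX set from 1 to 2 with median scaling and to 0 with probes detected on all 8 arrays, where HSD17B6 was not tested. Leaving out 1 array gave 0 to 2 calls for that interaction, 1 to 2 and 0 to 1 within replicates 1 and 2 and 1 to 3 by replicate number in the DHT set, and 4 to 5 by siFoxA1 title, 5 to 6 and 5 to 9 within replicates 1 and 2 and 0 to 1 for their difference in the DEX set. Where no construction is named, the cause was not tested.

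The replicate block raised the calls over all probes from 677 to 2372 (DHT title), from 83 to 973 in parental and from 106 to 1038 in siFoxA1 arrays, and from 2016 to 6009 (siFoxA1 title in the DEX set); of the members it changed HSD17B6, HSD17B14 and HSD17B12 as stated above, and no other call. Other counts over all probes that moved by over 1.5 times were 1116 with median scaling and 234 to 437 with 1 array left out (DHT title, 677), 44 and 60 with probes detected on all 8 arrays and 6 to 57 and 8 to 96 with 1 array left out (DHT title in parental and siFoxA1 arrays), 1043 without the variance trend and 1047 to 1273 with 1 array left out (replicate number in the DHT set, 1688), 385 and 348 without filter or trend (interaction in the DHT set, 619), 2558 without the trend (replicate number in the DEX set, 3952), 270 without the trend and 377 with 1 array left out (interaction in the DEX set, 711), with 1 array left out 1253 and 1779 (within replicates 1 and 2 of the DHT set, 2002 and 2808) and 3304 (within replicate 1 of the DEX set, 5180), 943 to 1386 with 1 array left out and 1290 genes with 1 probe per gene (siFoxA1 title in the DEX set, 2016). With median scaling the higher calls were 191 of 1116 for the DHT title (main setting 298 of 677), 35 of 90 in parental (44 of 83) and 42 of 158 in siFoxA1 arrays (48 of 106), 489 of 2082 within replicate 1 (988 of 2002) and 659 of 2945 within replicate 2 (1294 of 2808), and 1259 of 4259 for replicate number in the DEX set (1817 of 3952). Signal over background limits HSD17B6, SRD5A2 and a pair of HSD17B11 probes.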

Other observations

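Replicate number in the DEX set went with calls in the steroid genes around the members, on a background of 10.9% of 10999 genes higher on replicate 2 arrays and 13.0% lower. Of 14 genes of androgen synthesis and inactivation 6 were higher and 0 lower. AKR1C3 rose by 2.31 (adjusted p = 6.18e-06) and AKR1C4, its paralog, was at least 2.01-fold higher (detected on 4 of 4 replicate 2 arrays and on 0 replicate 1 arrays); these genes are near-identical in part, so their signals may not be separate. The others were HSD11B2 at 0.80, the ferredoxin FDX1 at 0.68, the mitochondrial cholesterol-binding protein TSPO at 0.38 and CYB5A at 0.38. Of 5 other 17-beta-dehydrogenases 2 were higher, HSD17B1 by 0.55 and HSD17B2, which inactivates testosterone and estradiol, by at least 1.32-fold with 2 of 4 replicate 2 arrays detected. AKR1C4 and HSD17B2 were detected on replicate 2 arrays only, so their places in these counts rest on the filter. HSD17B6 passed the filter through replicate 1, so no contrast with these genes is drawn.

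Peroxisomal beta-oxidation had 12 of 17 genes called by the same label, 7 higher and 5 lower. AMACR was lower by a log2 difference of -1.51, while the carnitine transferase CROT rose by 1.43 and the branched-chain acyl-CoA oxidase ACOX2 by 1.28. HSD17B4, which acts after ACOX2 and AMACR in this pathway, was not called (-0.19, adjusted p = 0.101).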
